A study of Mus musculus with 2 samples.

Results

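The non-peptidergic nociceptors that express Mrgprd were examined in dissociated mouse dorsal root ganglia taken from all levels of the body axis at postnatal day 4. The data were 10x 3′ single-cell libraries, 1 for each of 2 genotypes. The first genotype was Ptges3 flox/flox, called flox here, and the second was Dhh CRE+, Ptges3 flox/flox, called cKO here. Ptges3 encodes cytosolic prostaglandin E synthase, also known as the HSP90 cochaperone p23, and the study asks what prostaglandin E2 made by Schwann cells does to the excitability of developing sensory neurons. Both genotypes carry the floxed allele. The Dhh promoter drives Cre in the Schwann cell lineage, so the neurons described here are not the cells the deletion is aimed at. How many animals went into each library was not stated. A barcode was kept as a gated neuron when it had at least 5000 UMIs (unique molecules), at most 15% mitochondrial UMIs, and Snap25, Stmn2, Tubb3 and Prph together at 0.4% of its UMIs or more. Of these neurons, the Mrgprd neurons were those with at least 3 Mrgprd UMIs, under 10 UMIs of Sst plus Nppb, and without joint Th and Slc17a8 (at least 1 UMI of each and 4 together). The rule chose 650 of 10014 barcodes in the flox library and 470 of 9703 in the cKO library, 1120 of 19717 in all. Because the cells were chosen on measured values, the levels of the genes in the rule, and all differences from other neurons, are given as descriptions.

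Mrgprd neurons are unmyelinated C fibres that end in the epidermis and signal noxious mechanical stimuli and some forms of itch. Mrgprd itself is a G protein-coupled receptor for beta-alanine. Under the transcription factor Runx1 the lineage comes to depend, around and after birth, on Ret, the receptor of the GDNF family, and does not take on the neuropeptides of its peptidergic sister lineage.

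The libraries held 132620886 and 78144437 UMIs (flox and cKO), and the Mrgprd neurons 35572463 and 19072204 of them. A flox Mrgprd neuron had a median of 56306.5 UMIs and 7530 genes, and a cKO one 39284.5 UMIs and 6651 genes. The 2 libraries shared 23 barcodes, of which none was a Mrgprd neuron of the flox library and 2 were Mrgprd neurons of the cKO library. With 1 library per genotype no test between genotypes was possible. Every interval below is a 95% interval that covers counting error only, and no difference between the libraries has a replicate check. Levels are CPM (UMIs of a gene per 1000000 UMIs), summed over the cells of a group, and log2 ratios are cKO over flox. The targeted gene, Ptges3 (chr10:128058954-128077272), stood at 277 CPM in flox Mrgprd neurons (271 to 282) and 404 CPM in cKO ones (395 to 413), a log2 ratio of 0.54 (0.50 to 0.59). In the other gated neurons the log2 ratio of Ptges3 was 0.49. In non-neuronal barcodes, which mix Schwann cells, where Dhh drives Cre, with cells of other types, Ptges3 stood at 234 CPM (flox) and 198 CPM (cKO). Which exons are floxed was not stated, so reads from outside the deleted part may be among these counts.

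Mrgprd neurons made up 39.9% of the 1630 gated neurons in the flox library (Clopper-Pearson interval 37.5 to 42.3) and 20.5% of the 2294 in the cKO library (18.9 to 22.2). This order belonged to the shallow cells. Between 5000 and 10000 UMIs the share was 11.4% in flox and 2.71% in cKO, and between 10000 and 20000 UMIs it was 26.0% and 6.90%. From 20000 to 40000 UMIs the order turned, with 21% in flox and 29.0% in cKO. From 40000 to 80000 UMIs, which held 482 of the 650 flox and 216 of the 470 cKO Mrgprd neurons, the shares were 53.8% (50.5 to 57.1) and 58.4% (53.2 to 63.5). The intervals of the libraries overlapped in each bin from 20000 UMIs up and in neither bin below it. Over all cells of at least 20000 UMIs they were 43.6% and 40.0%, and over those of at least 40000 UMIs 51.3% and 58.1%. The other gated neurons had a median of 40887 UMIs in flox and 13481 UMIs in cKO, so the pooled shares divide by neurons of very different depth. When each gated neuron was thinned to 5000 UMIs and the rule applied again, 5.28% (flox) and 2.44% (cKO) passed.

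**Figure D1:**
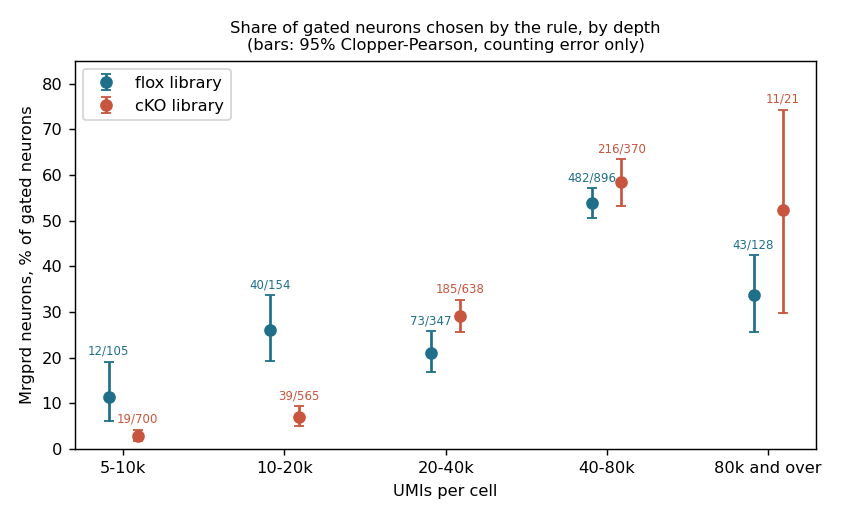
Share of gated neurons chosen as Mrgprd neurons (y axis, %) by UMIs per cell (x axis) in the flox and cKO libraries, with 95% Clopper-Pearson bars and the cell counts above each point. The flox share is higher in both bins under 20000 UMIs, and the cKO point is higher in the 3 deeper bins.

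A flox Mrgprd neuron held a median of 10 Mrgprd UMIs (quartiles 7 and 14, highest 32), and a cKO one held 6 (quartiles 4 and 10, highest 38). Scaled to the UMIs of the same cell, the medians were 190 CPM in flox (quartiles 132 and 254) and 186 CPM in cKO (quartiles 131 and 257). Summed over cells, Mrgprd (chr7:145314835-145324086) stood at 194 CPM in flox (189 to 198) and 194 CPM in cKO (188 to 200), with a log2 ratio of 0.00 (-0.06 to 0.06). The lower count per cKO cell went with the lower depth of those cells. The summed scaled level did not differ beyond counting error, but Mrgprd is a gene that chose the cells. A fixed UMI minimum keeps shallow cells only when their scaled level is high, so this comparison cannot show whether Mrgprd differed between genotypes. Some alternatives listed at the end gave a lower ratio. Only 52 flox and 58 cKO Mrgprd neurons had under 20000 UMIs. These shallow cells were unlike each other: the median Mrgprd level per cell was 590 CPM in flox and 319 CPM in cKO, and the median mitochondrial share 3.86% in flox and 1.32% in cKO. In the deeper Mrgprd neurons the Mrgprd medians were 183 CPM (flox) and 177 CPM (cKO).

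**Figure D2:**
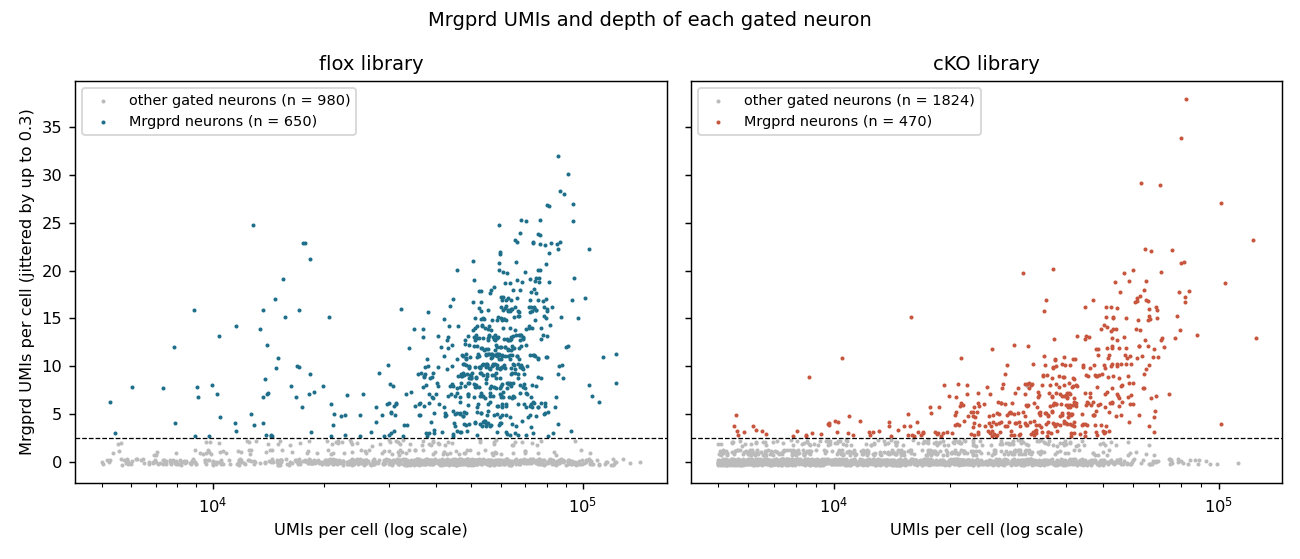
Mrgprd UMIs (y axis, jittered) against all UMIs (x axis, log scale) of each gated neuron in the flox and cKO libraries. The dashed line marks the minimum of 3 Mrgprd UMIs, and coloured points above it are the 650 and 470 Mrgprd neurons.

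The minimum of 3 Mrgprd UMIs cut through a continuous range. Just inside it lay 42 flox and 77 cKO cells with exactly 3 UMIs, and just outside 57 flox and 138 cKO cells with 2. The cells with 2 UMIs had Tmem233 at 773 CPM in flox and 434 CPM in cKO, and those with 3 had 854 and 520 CPM. Cells with no Mrgprd UMI had Tmem233 at 154 and 127 CPM. The neurons with 1 or 2 Mrgprd UMIs thus held part of the marker levels of the chosen cells, and the cKO library had more of them. The chosen cells held 95% of all Mrgprd UMIs of the flox library and 83.4% of those of the cKO library. The condition on Sst and Nppb removed no cell, and the one on Th and Slc17a8 removed 0 flox cells and 1 cKO cell. Of non-neuronal barcodes, 27 of 4205 in flox and 8 of 1327 in cKO held a Mrgprd UMI.

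The defining markers matched the label in both libraries. Nrn1, a neurite-promoting protein anchored to the membrane, stood at 1706 CPM (flox) and 1944 CPM (cKO) in Mrgprd neurons, against 990 and 1020 CPM in the other gated neurons. Tmem233 stood at 1085 and 733 CPM against 211 and 189 CPM. Ly86, a partner of a Toll-like receptor homologue, stood at 1498 and 1197 CPM against 225 and 329 CPM. Scn11a, the sodium channel Nav1.9 of C fibres, stood at 388 and 351 CPM against 167 and 150 CPM. The lysophosphatidic acid receptor Lpar3 stood at 42.3 CPM in flox (40.2 to 44.5) and 23.4 CPM in cKO (21.3 to 25.7), against 3.28 and 5.98 CPM elsewhere. Prkcq, at 24.0 and 23.2 CPM, and Lpar5, at 1.04 and 1.47 CPM, were scarcer non-peptidergic markers. In flox non-neuronal barcodes Prkcq stood at 36.2 CPM, above the flox Mrgprd neurons. P2rx3, an ATP-gated channel, and Gfra2, the neurturin coreceptor of Ret, differed less from the other neurons. P2rx3 stood at 125 and 97.0 CPM against 81.9 and 76.4 CPM, and Gfra2 at 72.4 and 72.8 CPM against 54.6 and 46.1 CPM. Runx1 stood at 132 CPM in flox Mrgprd neurons and 129 CPM in the other flox neurons, and at 189 against 135 CPM in cKO.

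Ret stood at 418 CPM in flox Mrgprd neurons (411 to 425) and 369 CPM in cKO ones (361 to 378), against 162 and 157 CPM in the other gated neurons. After thinning to 5000 UMIs per cell, 85.5% of flox and 85.3% of cKO Mrgprd neurons had a Ret UMI. In non-neuronal barcodes, thinned alike, Ret was found in 1.83% and 3.69%.

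Markers of other cell types were low but present. The peptidergic genes Calca (CGRP) and Tac1 (substance P) stood at 328 and 35.9 CPM in flox Mrgprd neurons, against 3159 and 674 CPM in the other flox neurons. In cKO they stood at 234 and 75.1 CPM, against 1671 and 584 CPM. Sst, a gene of the rule, had a UMI in 0 of 650 flox cells and in 1 of 470 cKO cells. The whole series held 16 and 3 Sst UMIs (flox and cKO). The 6 Schwann markers summed to 1111 CPM in flox and 686 CPM in cKO Mrgprd neurons, against 40246 and 10391 CPM in non-neuronal barcodes. The 4 endothelial markers summed to 1.94 and 1.84 CPM.

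**Figure D3:**
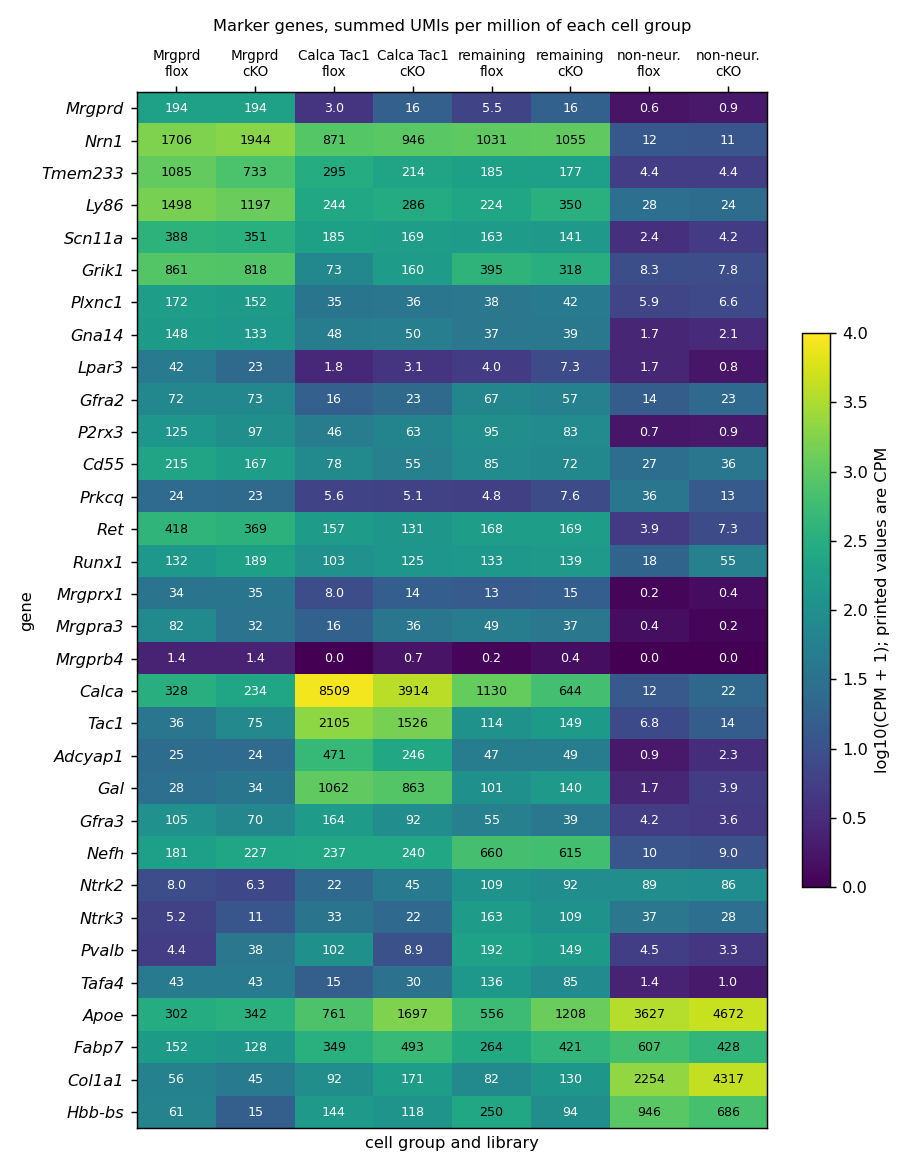
Summed level of marker genes (rows, CPM printed in each cell, colour on a log10(CPM + 1) scale) in Mrgprd neurons, neurons with at least 10 Calca and 3 Tac1 UMIs, remaining gated neurons and non-neuronal barcodes (non-neur.) of each library. Mrgprd, Nrn1, Tmem233, Ly86 and Scn11a are highest in the Mrgprd columns, and Calca and Tac1 in the neurons chosen by those genes.

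Among the Mas-related receptors, the family of Mrgprd, the chosen cells held a small set. Mrgprx1, the receptor for BAM8-22, stood at 34.2 CPM in flox (32.3 to 36.1) and 34.6 CPM in cKO (32.0 to 37.3). A Mrgprx1 UMI was found in 71.2% of flox and 61.5% of cKO Mrgprd neurons, and after thinning in 15.7% (13.0 to 18.7) and 16.4% (13.2 to 20.0). Non-neuronal barcodes, with medians of 8583 and 6856 UMIs, had one in 0.190% and 0.301%. Mrgpra1 stood at 33.7 CPM (31.8 to 35.7) and 23.9 CPM (21.8 to 26.2). Mrgpra2b, Mrgpra2a, Mrgpre and Mrgprb4 stood at 3.94 CPM or less in both libraries. Mrgprb1, Mrgprb2, Mrgprb3, Mrgprb8, Mrgprg, Mrgprh and Mrgprx2 had no UMI in any Mrgprd neuron, which at 3 counts allows a share of cells with a UMI, not of cells that express the gene, of up to 0.462% in flox and 0.638% in cKO. The Mrgpra genes are close copies of each other, and how reads shared between copies were counted was not given, so their single values are uncertain.

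Counting Mrgprd itself, 222 of 9806 genes (2.26%) were at least 1 log2 higher in Mrgprd neurons than in the other gated neurons of both libraries. At least 1 log2 lower were 357 (3.64%). Outside the rule's own genes, the gene with the largest excess, by the smaller of its libraries' ratios, was F2rl1. F2rl1, the protease-activated receptor PAR2, stood at 3.85 CPM in flox Mrgprd neurons and 6.5 CPM in cKO ones, against 0.290 and 0.795 CPM in the other neurons. Agtr1a, the angiotensin II receptor, stood at 37.4 and 31.7 CPM against 1.81 and 5.36 CPM, and had a UMI in 79.5% and 64.3% of Mrgprd neurons. The remaining named genes of the 20 highest have varied roles. Hal, histidine ammonia-lyase, stood at 11.5 and 13.5 CPM against 2.08 and 2.56 CPM. Slc16a12, a transporter of the monocarboxylate family, stood at 11.1 and 8.44 CPM against 1.04 and 1.15 CPM. A3galt2 and St6gal2, which add galactose and sialic acid to glycans, stood at 97.3 and 47.3 CPM in flox Mrgprd neurons against 16.2 and 10.4 CPM. Ptprt, a receptor tyrosine phosphatase, stood at 99.3 and 112 CPM against 16.4 and 24.1 CPM. Cdh1 (E-cadherin) stood at 52.9 and 59.5 CPM against 8.20 and 14.6 CPM, and the ligand Wnt2b at 11 and 11.3 CPM against 1.38 and 2.68 CPM. The interferon-induced Ifit1 stood at 23.8 and 33.7 CPM against 2.24 and 7.36 CPM. Kcnj11, the pore subunit of the ATP-sensitive potassium channel, stood at 20.0 and 22.3 CPM against 3.55 and 5.45 CPM. The 20 highest also included Fam167a, Fyb2, Tmem79, Lrrn4 and the unnamed or predicted genes Gm49767, Gm16364, 2310002F09Rik and Gm32633. The excess was smaller in cKO for all 20 (Agtr1a: log2 4.37 in flox and 2.56 in cKO). For Agtr1a the level in the other neurons was higher in cKO. The other cKO neurons held more cells with 1 or 2 Mrgprd UMIs (272 and 138, against 80 and 57 in flox). Their part in the smaller excess was not tested.

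Promoter sequences from RefSeq (GRCm38.p6, 250 bases before to 50 after the annotated start) were read for the genes that define and split these cells. They are the defining receptor, its family member Mrgprx1, the marker Lpar3, and Etv1, which was high in the Mrgpra3 cells described next. They are shown because Runx1 is required in this lineage, and each was searched on both strands for the RUNX core, spelled TGTGGT or TGCGGT, printed in capitals.
Mrgprd promoter, chr7:145314585-145314884 (+ strand): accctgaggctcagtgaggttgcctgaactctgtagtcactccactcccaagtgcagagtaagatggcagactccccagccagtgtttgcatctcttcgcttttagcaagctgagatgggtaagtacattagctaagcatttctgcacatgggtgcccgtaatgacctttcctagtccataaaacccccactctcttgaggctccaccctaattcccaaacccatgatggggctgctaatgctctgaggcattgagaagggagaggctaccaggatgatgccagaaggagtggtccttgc
Mrgprx1 promoter, chr7:48027548-48027847 (- strand): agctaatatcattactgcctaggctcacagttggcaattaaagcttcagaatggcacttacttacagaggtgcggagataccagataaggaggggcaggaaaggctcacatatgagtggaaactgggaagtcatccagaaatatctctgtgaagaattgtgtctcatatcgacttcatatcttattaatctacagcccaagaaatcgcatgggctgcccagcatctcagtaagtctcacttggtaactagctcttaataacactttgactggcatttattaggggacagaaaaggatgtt
Lpar3 promoter, chr3:146220711-146221010 (+ strand): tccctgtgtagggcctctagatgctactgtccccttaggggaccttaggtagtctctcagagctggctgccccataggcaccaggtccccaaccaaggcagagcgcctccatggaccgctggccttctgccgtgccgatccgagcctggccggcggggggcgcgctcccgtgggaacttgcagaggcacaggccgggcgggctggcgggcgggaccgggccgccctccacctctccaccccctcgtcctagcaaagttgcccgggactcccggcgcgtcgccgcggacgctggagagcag
Etv1 promoter, chr12:38779832-38780131 (+ strand): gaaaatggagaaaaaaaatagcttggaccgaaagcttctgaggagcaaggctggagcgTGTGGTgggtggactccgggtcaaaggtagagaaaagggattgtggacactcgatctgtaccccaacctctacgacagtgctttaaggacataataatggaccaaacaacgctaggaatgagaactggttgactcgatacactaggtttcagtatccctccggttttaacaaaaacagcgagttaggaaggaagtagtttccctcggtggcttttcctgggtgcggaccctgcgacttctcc
The Etv1 window held 1 match, starting 192 bases before the start, and the other 3 windows held none of these letters. Etv1 is shown by the window with the match. Its other annotated promoter, chr12:38783461-38783760, and that of Gfra1 were searched too and held no match. The same search matched 22.4% of all 32851 promoters. It matched 2 of the 14 promoters found for the 20 genes highest against other neurons (14.3%) and 3 of 13 for the non-peptidergic markers (23.1%). It matched 5 of 19 for genes high in the Mrgpra3 cells (26.3%) and 0 of 14 for genes low in them. A match is a description of letters and not a binding site.

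A small group within the Mrgprd neurons carried Mrgpra3, the chloroquine itch receptor (chr7:47588950-47601372). At least 5 Mrgpra3 UMIs were found in 52 flox cells (8.0%, 6.03 to 10.4) and 19 cKO cells (4.04%, 2.45 to 6.24). These cells held 98.7% and 94.6% of the Mrgpra3 UMIs of all Mrgprd neurons. The split was chosen after the values were seen, so what follows describes it without a test. The cells had a median of 70702.5 UMIs in flox and 50650 UMIs in cKO, above the 55525 and 38706 UMIs of the other Mrgprd neurons. Their Mrgprd level was lower, at 95.7 CPM in flox (85.7 to 107) and 119 CPM in cKO (99.3 to 142), against 204 CPM (199 to 209) and 198 CPM (192 to 205). A further 54 flox and 76 cKO neurons with at least 5 Mrgpra3 UMIs fell outside the rule, and their median Mrgprd count was 0.

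The Mrgpra3 cells differed from the other Mrgprd neurons in receptors, a transcription factor and signalling genes. Gfra1, the GDNF coreceptor, stood at 165 CPM in the flox Mrgpra3 cells and 178 CPM in the cKO ones, against 14.6 and 15.9 CPM in the rest. Its relative Gfra2 was the reverse, at 6.94 and 11.2 CPM against 79.5 and 76.5 CPM. The transcription factor Etv1 stood at 303 and 418 CPM against 31.8 and 38.1 CPM. Runx1 stood at 23.7 CPM (18.9 to 29.4) and 64.2 CPM (49.9 to 81.2) against 144 CPM (140 to 148) and 197 CPM (190 to 203). Mrgprb4, the receptor of stroking-sensitive C fibres, was nearly confined to them, with 45 of 50 flox and 25 of 27 cKO UMIs. Calca stood at 1111 and 832 CPM against 244 and 198 CPM, while Tac1 showed no common direction, at 8.39 and 77.2 CPM against 38.9 and 75 CPM. Lpar3 had 6 UMIs in the flox Mrgpra3 cells and 1 in the cKO ones, which gives 1.74 CPM (0.637 to 3.78) and 0.93 CPM (0.0235 to 5.18) against 46.6 and 24.8 CPM. Hal had 2 UMIs and none. Prkcq, protein kinase C theta, stood at 6.07 and 0.93 CPM against 25.9 and 24.6 CPM, and the potassium channel subunit Kcnab1 at 5.21 and 6.51 CPM against 43.1 and 50.2 CPM. The interferon-induced Ifit3, the phosphodiesterase Pde1c and the lipase Mgll were all higher in the Mrgpra3 cells, by log2 2.39 to 3.10. Several markers of Mrgprd neurons did not separate the groups: of Tmem233, Cd55, Ret and Scn11a, none differed more from the rest than Tmem233 in cKO, which was 0.25 log2 higher. Other markers differed more. The log2 ratio of the Mrgpra3 cells to the rest was 0.83 (flox) and 0.42 (cKO) for Ly86, and 0.43 and 0.48 for Plxnc1. It was -0.70 and -0.58 for Grik1, and -0.59 and -0.62 for P2rx3. The neurons with Mrgpra3 outside the rule had low Gfra2 (16.2 and 24.0 CPM) and high Etv1 (429 and 306 CPM) too, beside Calca at 3540 and 2344 CPM.

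**Figure D4:**
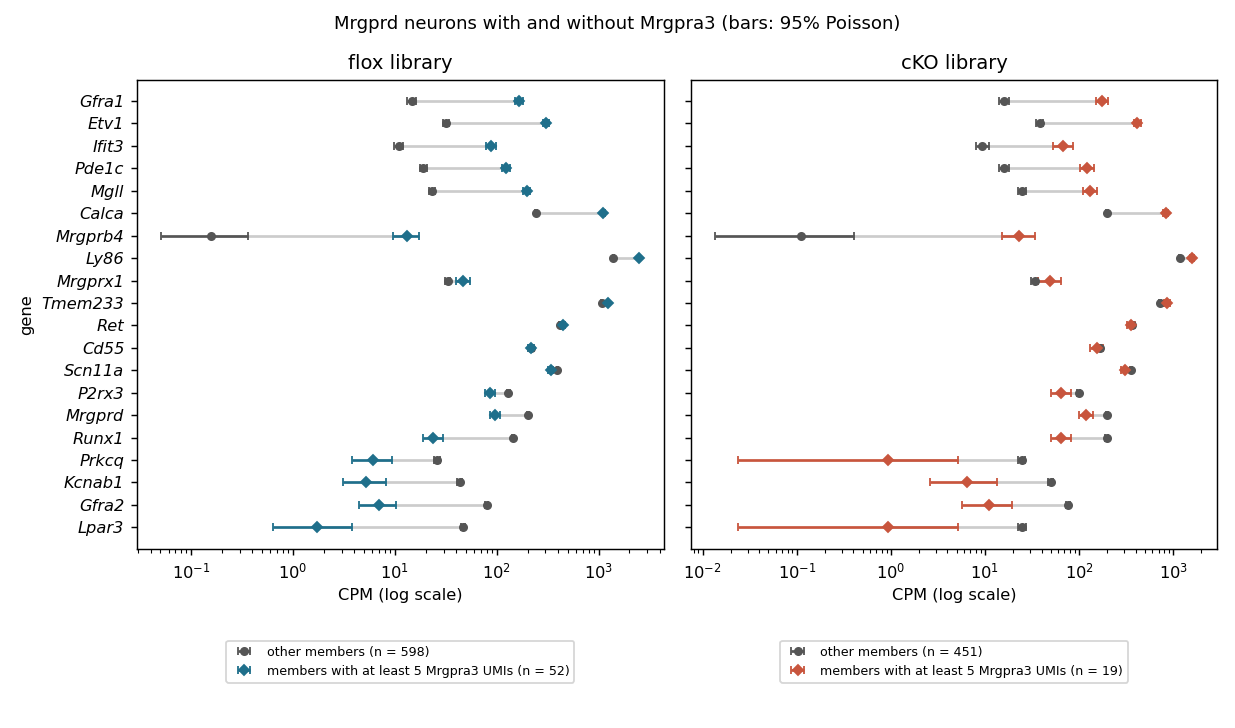
Summed level (x axis, CPM, log scale) of the genes on the y axis in Mrgprd neurons with at least 5 Mrgpra3 UMIs (diamonds) and in the other Mrgprd neurons (dots) of each library, with 95% Poisson bars. Gfra1, Etv1 and Calca lie to the right and Runx1, Gfra2 and Lpar3 to the left in the Mrgpra3 cells of both libraries, while Ret, Cd55 and Scn11a nearly coincide.

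Some chosen cells carried much RNA of other cell types, and no doublet caller was run on them. Glial genes reached 0.5% of UMIs in 65 flox (10.0%) and 29 cKO (6.17%) Mrgprd neurons, which held 35.9% and 17.3% of the Apoe UMIs. At least 10 Calca and 3 Tac1 UMIs were found in 33 flox and 28 cKO cells, with 72.3% and 84.9% of the Tac1 UMIs and 46.5% and 48.2% of the Calca UMIs. These shares, and the next, are of genes that also chose the cells. Only 5 flox and 8 cKO cells had 5 or more UMIs of Pvalb, a gene of proprioceptors, and held 82.2% and 96.3% of its UMIs. Haemoglobin Hbb-bs at 10 UMIs or more was found in 3 and 2 cells, with 79.1% and 80.8% of its UMIs. Together with the Mrgpra3 cells these made 135 flox (20.8%) and 79 cKO (16.8%) cells of mixed character. Ratios without them, over 515 flox and 391 cKO cells, are given below beside some of the results. For Mrgpra3, Calca, Tac1, Pvalb, Hbb-bs and the glial genes, which chose the mixed cells, a change in ratio is partly built in. Without the mixed cells the prostaglandin E2 and cyclic AMP list described below had 7 genes higher in place of 4. The counts of the other lists described below changed by at most 2 genes in either direction.

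Between the genotypes, 11834 genes had at least 100 UMIs over the Mrgprd neurons of both libraries. Of these, 838 (7.08%) were at least 0.5 log2 higher in cKO and 853 (7.21%) at least 0.5 log2 lower, with a median log2 ratio of 0.03. Without the mixed cells 805 were higher and 743 lower, of 11291. In the other gated neurons 634 of 13273 genes (4.78%) were higher and 716 (5.39%) lower, with a median of -0.08. These neurons included the cells with 1 or 2 Mrgprd UMIs, more of them in cKO, which the ratios below do not allow for. Genes with over 5 times the level in non-neuronal barcodes were 17.5% of the higher and 19.8% of the lower ones, and 8.47% of all measured genes. Markers of other cells differed between the libraries, but not all in the same way. The 6 Schwann markers had a median log2 ratio of -1.16, with 5 lower, and the 3 erythroid genes -2.82. Without the mixed cells these medians were -0.42, with 3 lower, and -1.96. The 5 satellite glia markers had a median of -0.50, with 2 lower and the highest at 0.18. Among them, Apoe stood at 302 CPM in flox and 342 CPM in cKO. The 4 measured macrophage markers had a median of -0.27, with 1 higher and 1 lower. The part of RNA from other cells in the other differences was not tested.

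Some of the genes highest in cKO were spread over many cells. Arhgef10l, a guanine nucleotide exchange factor, stood at 18.6 CPM in flox (17.2 to 20.1) and 53.6 CPM in cKO (50.4 to 57.0), with UMIs in 55.2% and 77.7% of cells. Its log2 ratio was 1.53 in Mrgprd neurons and 0.63 in the other neurons. Alkal2, a ligand of the receptor ALK, stood at 5.03 CPM (4.32 to 5.83) and 20.4 CPM (18.5 to 22.6), with UMIs in 12.9% and 36.4% of cells. Its log2 ratio was 2.02 (1.76 to 2.29), 2.73 without the mixed cells and 0.24 in the other neurons. Lypd1, a Ly6-family protein that binds nicotinic receptors, stood at 3.40 and 16.5 CPM, a log2 ratio of 2.28 (1.97 to 2.59) against -0.17 in the other neurons. Lars2, the mitochondrial leucyl-tRNA synthetase, stood at 26.4 and 105 CPM, but its log2 ratio of 1.99 was exceeded by 2.71 in the other neurons. The histone genes Hist1h3e and Hist1h4d and the olfactory receptor gene Olfr655 were also high, the last on 13 and 98 UMIs. Ptchd4 stood at 1.15 and 3.78 CPM.

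The remaining genes of this kind rested on few cells. Pvalb stood at 4.41 and 37.8 CPM, a log2 ratio of 3.10 that was 0.89 without the mixed cells, some of which Pvalb itself chose. Pcp4, a calmodulin-binding protein, had a ratio of 1.77 that became 0.68, Clec2l 1.82 that became 0.69, and Tesc 1.86 that became 0.92. All of them were more abundant in the other gated neurons of both libraries, with Tesc, the scarcest there, at 52.3 and 65.0 CPM.

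Several of the genes lowest in cKO were abundant in both libraries. Tmem45b, a membrane protein, stood at 256 CPM (251 to 261) and 119 CPM (114 to 124), a log2 ratio of -1.11 (-1.18 to -1.04) against -0.64 in the other neurons. Ndn, which encodes the growth suppressor necdin, stood at 619 and 297 CPM, a log2 ratio of -1.06 against -0.80. The glycolytic Gapdh stood at 1712 and 830 CPM, a log2 ratio of -1.04 against -0.70. Isyna1, which makes inositol phosphate, the glycosylation enzyme Alg1, the GTPase Rhog and the mitochondrial ribosomal gene Mrpl37 had ratios of -1.04, -1.09, -1.08 and -1.0, and between -0.54 and -0.39 in the other neurons. Upp1 and Atp6v0a4 did not share this sign in the other neurons. Upp1, uridine phosphorylase, stood at 7.59 and 3.25 CPM, a ratio of -1.22 (-1.65 to -0.82) against 0.28. Atp6v0a4, a proton pump subunit, stood at 2.5 and 0.682 CPM, a ratio of -1.88 (-2.84 to -1.03) against 0.46. Nudt7 and Mustn1 had ratios of -1.31 and -0.93. Mrgpra3 was also among the lowest, at 82.4 and 31.8 CPM and a log2 ratio of -1.37 (-1.50 to -1.25). It rested on the few Mrgpra3 cells: both their share of Mrgprd neurons (8.0% and 4.04%) and the Mrgpra3 level within them (837 and 534 CPM) were lower in cKO. That share depends on fixed UMI minimums in libraries of different depth. A further 54 flox and 76 cKO neurons with at least 5 Mrgpra3 UMIs fell outside the rule. The Mrgpra3 ratio was 0.71 without the mixed cells, which leaves the Mrgpra3 cells out by its construction. It was 1.02 in cells of 20000 to 60000 UMIs, while the median flox Mrgpra3 cell among the Mrgprd neurons had 70702.5 UMIs.

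Of the 16 measured non-peptidergic markers, Runx1 was above 0.5 log2 and Lpar3 and Tmem233 below -0.5, and the list's median was -0.16. All measured genes together had 7.08% higher and 7.21% lower. Runx1 stood at 132 CPM (129 to 136) and 189 CPM (183 to 195), a log2 ratio of 0.51 (0.45 to 0.58) that was 0.47 without the mixed cells. It was 0.07 in the other neurons. Lpar3 (chr3:146220963-146286186) had a log2 ratio of -0.85 (-1.01 to -0.70), while in the other neurons it was 0.87. Tmem233 (chr5:116038755-116083244) had -0.57 (-0.59 to -0.54) against -0.16, and Ly86 -0.32 against 0.55. The other neurons of the cKO library held more cells with 1 or 2 Mrgprd UMIs (272 and 138, against 80 and 57 in flox), whose part in these ratios was not tested.

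The sodium channels most abundant here, Scn10a, Scn9a and Scn11a, had ratios near 0. The nociceptor channels Scn10a (Nav1.8) and Scn9a (Nav1.7) stood at 495 and 426 CPM in flox and 485 and 403 CPM in cKO, log2 ratios of -0.03 (-0.06 to 0.01) and -0.08 (-0.12 to -0.04). Scn11a had -0.15 (-0.19 to -0.10). Of 13 sodium channel genes and partners, 3 were past 0.5 log2 higher and none lower, beside 7.08% and 7.21% of all genes. Scn1a and Scn4b were the highest, and the list's median was 0.12. Scn1a, at 4.95 and 8.28 CPM, had a ratio of 0.74 that was 0.34 without the mixed cells. Without the mixed cells 1 gene was higher in place of 3. The list's median was 0.05 without the mixed cells, -0.25 with all cells thinned to 5000 UMIs and -0.24 in the other neurons, so its sign differed between these.

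Potassium and HCN channels had 6 of 41 genes higher and 1 lower, with a median of 0.15, against -0.14 in the other neurons. The shares over all measured genes, beside which the counts of this paragraph stand, were 7.08% higher and 7.21% lower. The lower gene of the potassium and HCN list was Kcnk18 (TRESK, chr19:59219214-59237374), a background potassium channel that damps nociceptor firing. It stood at 172 CPM in flox (168 to 176) and 98.2 CPM in cKO (93.8 to 103), with UMIs in 98.5% and 90.6% of cells. Its log2 ratio was -0.81 (-0.88 to -0.73) and -0.80 without the mixed cells. In the other gated neurons Kcnk18 stood at 32.7 and 32.8 CPM, a ratio of 0.00. Those neurons included the cells with 1 or 2 Mrgprd UMIs, of which cKO had more. Hcn4, a pacemaker channel, stood at 5.03 and 9.33 CPM, a ratio of 0.89, and Kcnk1 at 2.02 and 3.93 CPM, a ratio of 0.96 that was 0.56 without the mixed cells. Calcium channels had 3 of 14 higher and none lower, with a median of 0.27. The highest, Cacng2, stood at 1.43 and 2.88 CPM. TRP and mechanosensory channels had 1 of 18 higher (Asic1, 2.81 and 6.19 CPM) and 2 lower, with a median of -0.19. Tmem120a stood at 18.2 and 11.4 CPM and Trpc6 at 21.8 and 15.4 CPM. None of 10 purinergic genes passed 0.5 log2 either way.

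The receptors for prostaglandin E2, whose Schwann source the study concerns, were scarce. Ptger3, which lowers cyclic AMP, was the most abundant, at 23.4 CPM in flox (21.8 to 25) and 26.4 CPM in cKO (24.1 to 28.8), against 9.34 and 8.75 CPM in the other neurons. Its log2 ratio between genotypes was 0.17 (0.01 to 0.34). Ptger1, which raises calcium, stood at 7.62 and 7.55 CPM, a ratio of -0.01 (-0.31 to 0.28). Ptger4, which raises cyclic AMP, stood at 1.74 and 1.99 CPM, below the other neurons, and its ratio was 0.19 (-0.43 to 0.80). Ptger2, the other receptor that raises cyclic AMP, stood at 1.66 CPM (1.26 to 2.14) and 3.93 CPM (3.09 to 4.93), with UMIs in 8.77% and 13.2% of cells. Its ratio was 1.25 (0.73 to 1.76), and 0.75 in the other neurons. Of 31 receptor and cyclic AMP genes, 4 were past 0.5 log2 higher and none lower, beside 7.08% and 7.21% of all genes. The list's median was 0.17 in Mrgprd neurons and -0.12 in the other neurons. Adcy1, an adenylyl cyclase, stood at 3.96 and 6.87 CPM.

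Sensory transcription factors had 5 of 27 genes higher and none lower, beside 7.08% and 7.21% of all genes. The median of this list was 0.20, against -0.20 in the other neurons. Bcl11a (1.66 and 3.36 CPM) and Shox2 (2.92 and 5.87 CPM) led it, both higher in the other gated neurons (18.6 and 13.3 CPM, and 16.0 and 19.4 CPM), with ratios of 1.02 and 1.01 that were 0.51 and 0.61 without the mixed cells. Receptors of the GDNF and neurotrophin families had 3 of 14 higher and 1 lower. Ntrk3 (TrkC) stood at 5.23 and 11 CPM, with 93.0% and 93.3% of its UMIs in the top 10% of cells. Ngfr, the p75 receptor, stood at 11.5 and 21.7 CPM. The lower one was Gfra3, the artemin coreceptor, at 105 and 69.8 CPM, a ratio of -0.59 against -0.60 in the other neurons. Neuropeptide genes had 1 of 16 higher and 4 lower. The higher one, Tac1, had a ratio of 1.06 that was 0.11 without the mixed cells, and Calca had -0.49 that became 0.15. Both genes chose some of the mixed cells, so these changes are partly built in. Calcb and the granin Chga had ratios of -0.59 and -0.61, and -0.67 and -0.53 in the other neurons.

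**Figure D5:**
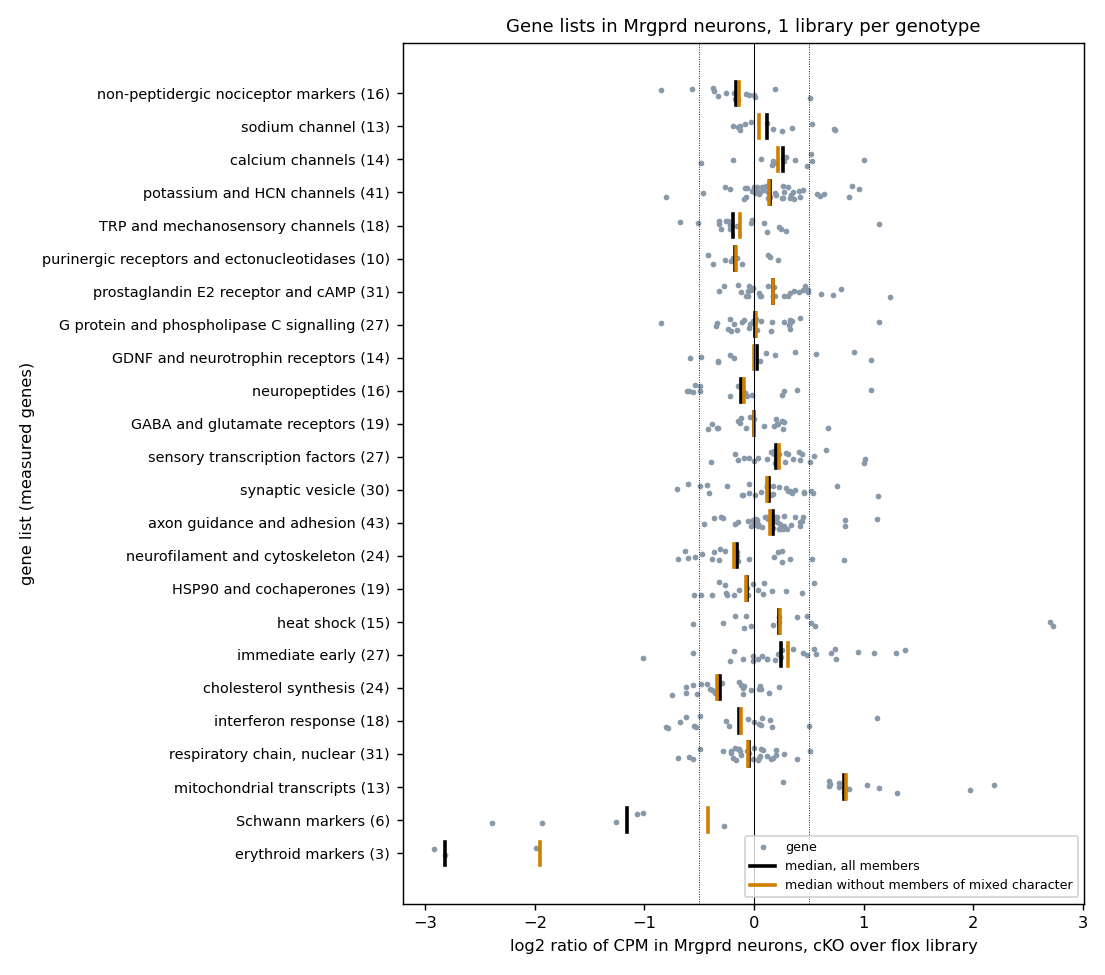
Log2 ratio of CPM, cKO over flox (x axis), of each measured gene (dots) in the gene lists named on the y axis (number of measured genes in brackets) in Mrgprd neurons, with the list's median over all cells (black) and without the cells of mixed character (orange). Dotted lines mark 0.5 log2; mitochondrial transcripts lie to the right of 0, and Schwann and erythroid markers to the left.

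Synaptic vesicle genes had 4 of 30 higher and 2 lower, beside 7.08% and 7.21% of all genes. Syngr3 and Syt5 were lower, at 316 and 156 CPM in flox and 194 and 102 CPM in cKO. Syt2, at 4.58 and 10.0 CPM, and Cplx2, at 29.9 and 50.5 CPM, were highest. Axon guidance genes had 3 of 43 higher, near the 7.08% of all genes, and none lower. In the other neurons 1 was higher and 9 lower, beside 4.78% and 5.39% of all genes measured there. Cytoskeleton genes had 2 of 24 higher and 4 lower, with a median of -0.16. The tubulins Tuba1a and Tubb2a stood at 4568 and 2069 CPM in flox and 2961 and 1281 CPM in cKO, ratios of -0.63 and -0.69 against -0.30 for both in the other neurons. The neurofilament gene Nefm stood at 189 and 335 CPM, a ratio of 0.82 that was 0.39 without the mixed cells.

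The heat shock genes Hspa1a and Hspa1b had the highest ratios among the listed stress genes. Hspa1a stood at 14.1 CPM (12.9 to 15.3) and 91.3 CPM (87.0 to 95.7) in Mrgprd neurons, a log2 ratio of 2.70, and the ratio in the other neurons was 2.63. Its near-identical neighbour Hspa1b had 2.73 and 2.43, so the split of reads between them is uncertain. Of 15 heat shock genes 4 were higher and 1 lower, against 2 and 0 in the other neurons, and of 27 immediate early genes 9 were higher and 2 lower, against 7 and 1. All measured genes of the Mrgprd neurons had 7.08% higher and 7.21% lower, and those of the other neurons 4.78% and 5.39%. Gadd45b stood at 20.2 and 52.7 CPM and Fosl2 at 3.26 and 8.02 CPM. Non-neuronal barcodes held more of these transcripts than neurons did, with Hspa1a at 320 and 724 CPM and Gadd45b at 283 and 371 CPM. Their part in the neuronal values was not tested.

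All 13 mitochondrial transcripts had ratios above 0, and 12 passed 0.5 log2, with a median of 0.83 against 0.38 in the other neurons. The range ran from mt-Cytb, at 1790 and 2148 CPM (0.26), to mt-Atp8, at 53.2 and 243 CPM (2.19). Per cell, mitochondrial UMIs had a median share of 1.16% in flox and 1.83% in cKO Mrgprd neurons. In the other neurons the order of these medians was opposite, at 1.21% and 0.985%, over cells of very different depth. Their summed level was higher in cKO, at 12261 CPM (flox) and 15538 CPM (cKO). Among Mrgprd neurons the order turned with depth. The medians were 3.86% (flox) and 1.32% (cKO) under 20000 UMIs, and 1.13% and 1.88% from 20000 UMIs up. Nuclear genes of the respiratory chain had 1 of 31 higher and 3 lower, beside 7.08% and 7.21% of all genes, with a median of -0.04. The lowest, Uqcrc1, stood at 251 and 156 CPM.

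Cholesterol synthesis genes had none of 24 higher and 5 lower, with a median of -0.31 in Mrgprd neurons and -0.20 in the other neurons. The shares over all measured genes, for this and the other lists of this paragraph, were 7.08% higher and 7.21% lower. Fdps, which makes farnesyl diphosphate, stood at 724 CPM (715 to 733) and 432 CPM (422 to 441), a ratio of -0.75 against -0.19 in the other neurons. Nsdhl stood at 60.7 and 39.4 CPM. Both were also lower in cKO non-neuronal barcodes, where Fdps stood at 570 and 199 CPM and Nsdhl at 89.8 and 24.5 CPM. Interferon response and antigen presentation genes had 2 of 18 higher and 6 lower. The class I genes H2-D1 and H2-K1 stood at 214 and 68.6 CPM in flox and 125 and 39.4 CPM in cKO, ratios of -0.78 and -0.80. In the other neurons their ratios were -0.03 and 0.74, and in non-neuronal barcodes both were higher in cKO. Irf1 stood at 13.0 and 28.3 CPM. Of 19 HSP90 genes and cochaperones 1 was higher, Ptges3 itself, and 1 lower. The Ptges3 ratio was 0.48 with TMM and 0.49 with DESeq2 scaling, under 0.5.

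Transcripts of Schwann cells were lower in the cKO Mrgprd neurons, as in the other neurons. Mag, of the myelin sheath, stood at 16.2 and 3.09 CPM, a ratio of -2.39 that was -0.65 without the mixed cells. Some of the mixed cells were chosen by glial genes that include Mag. Hbb-bs stood at 60.7 and 15.3 CPM, and its ratio was -1.99 with and -2.47 without the mixed cells.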

How the data were processed

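The authors deposited raw counts: UMI counts per gene and barcode in 10x matrices, written by cellranger 6.1.2 per the file headers. The submitters' processing notes name Cell Ranger 5.0.1, Scanpy and mm10, and the role of each was not stated. All columns were used (0 left out). The Mrgprd neurons and the 37 gene lists were chosen with earlier results of these data known, and support nothing on their own. UMIs were summed over chosen cells per library and divided by their total (CPM). Intervals are 95% exact Poisson (levels), Clopper-Pearson (shares) and conditional binomial (ratios), and they cover counting error only. PCR duplicates are collapsed by UMI. Genes with a total of 100 or more UMIs in Mrgprd neurons of both libraries counted as measured, and a gene counted as higher or lower from 0.5 log2, with no test. Non-neuronal barcodes had at least 5000 UMIs and the 4 neuron genes under 0.1% of UMIs. No doublet caller was run. Named were the 12 highest and 12 lowest genes by the interval bound nearest to 0 and the 2 highest and 2 lowest of each list with at least 5 measured genes. Also named were the markers, the Mrgpr family, Ptges3, Ptger1 to Ptger4, the sodium channels and the 20 genes highest against other neurons. Left out of the 12 each way were mitochondrial, ribosomal protein, haemoglobin, sex-linked Xist, Tsix and Y genes, predicted genes, and genes over 5 times as abundant in non-neuronal barcodes. Some genes of the Mrgpra3 cells and lists were named after their values were seen. Other cell, count and gene minimums, glial and deep cells left out, edgeR 4.0.16 (TMM) and DESeq2 1.42.0 scaling factors in R 4.3.3, mean cell CPM and thinning to 5000 UMIs were tried. Coordinates are GRCm38 (GENCODE vM21, 32158 of 32285 identifiers matched), and promoters are RefSeq GRCm38.p6. Scripts ran in Python 3.11.15 (pandas 2.3.3, scipy 1.17.1, numpy 2.4.6, matplotlib 3.10.9) and were tested on simulated data. Some genes that the naming rule or the lists take in are not reported here.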

Additional observations from a re-analysis of the deposited data

How the results depend on the processing

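No paired analysis was possible because each genotype had 1 library, which also leaves library and genotype impossible to tell apart. Of 102 named genes past 0.5 log2, 62 stayed past it in the same direction in the 13 alternatives run for single genes. Ptges3 was not among these genes. Alternatives chosen after seeing the data were at least 40000 UMIs per cell (run for the shares), without mixed cells, and cells of 20000 to 60000 UMIs. The share of Mrgprd neurons in flox and cKO was 43.6% and 40.0% from 20000 UMIs, 51.3% and 58.1% from 40000 UMIs, 43.4% and 26.5% with at least 2 Mrgprd UMIs, 35.2% and 14.2% with at least 5, and 5.28% and 2.44% after thinning. From 10000 UMIs the cKO share was 28.3%. The genes higher in cKO Mrgprd neurons numbered 357 after thinning, 3264 with no gene filter and 119 at 1 log2, and the genes lower in cKO Mrgprd neurons 2149 with no gene filter and 72 at 1 log2. The Mrgprd ratio was -0.065 at 20000 to 60000 UMIs, -0.060 with TMM, -0.13 as mean cell CPM and -0.11 after thinning. The Ptges3 ratio was 0.48 with TMM and 0.49 with DESeq2 factors, under the 0.5 used for calls. The sodium channel median was -0.25 after thinning. Thinning moved 14 of 34 list medians outside an interval drawn from the ranks of each list's genes. It also moved 102 of 173 named gene ratios outside their counting intervals, beside those whose sign turned. Signs turned after thinning for Aif1 (-0.34), F2rl1 (-0.17), Htr7 (-0.34), Kcnj10 (0.25) and Lum (0.69), and with at least 5 Mrgprd UMIs for Npy2r (0.30). At 20000 to 60000 UMIs they turned for Mrgpra2b (0.23), Mrgpra3 (1.02) and Osmr (-0.16), and without mixed cells for Mrgpra3 (0.71) and Prx (0.0044). The median of the 4-gene Mrgpra3 pruriceptor list turned to 0.022 without mixed cells, 0.62 at 20000 to 60000 UMIs, 0.010 with at least 50 UMIs per gene and 0.014 with no gene filter. The cause of these changes was not tested. Genes under about 2 CPM rest on few UMIs per library.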
